A study of Mus musculus with 3 samples.

Results

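The calcium pumps and sodium-calcium exchangers of cultured hippocampal neurons were followed through 10 genes, chosen by name from the 47593 gene rows of the deposited tables. They comprised 2 sarco/endoplasmic reticulum calcium ATPases (SERCA: Atp2a2 and Atp2a3), 4 plasma membrane calcium ATPases (PMCA: Atp2b1, Atp2b2, Atp2b3 and Atp2b4), 1 secretory pathway ATPase (SPCA: Atp2c1) and 3 sodium-calcium exchangers (NCX: Slc8a1, Slc8a2 and Slc8a3). All 10 symbols were present as single rows. RNA was sequenced in 3 libraries of 1 group, wild-type (WT) mouse primary hippocampal neurons kept in fresh medium with B27 and penicillin-streptomycin, for 24 h per the series design. Growth medium was Neurobasal with 10% B27 and 1% GlutaMAX, at 37 °C in 5% CO2. The wider study concerns apoE particles, and neurons given such particles were not analysed here, so levels are described and no treatment is compared. Nothing in the labels says whether the replicates came from separate animals or cultures, and the spread between them may be technical.

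Calcium enters neurons through channels at the membrane and synapse, and resting cytosolic calcium is kept very low by pumps and exchangers. SERCA pumps return calcium to the endoplasmic reticulum, PMCA pumps expel it across the plasma membrane with high affinity, and SPCA pumps carry calcium and manganese into the Golgi. NCX proteins use the sodium gradient to expel calcium with lower affinity and larger capacity, which makes them a main route of clearance after heavy activity.

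The authors deposited 1 log2 value per gene and library in the form of a regularized log, which pulls the libraries of a gene towards each other. Whole reads were therefore recovered from these values, and a level in CPM is the number of reads of a gene in 1000000 reads of its library. Recovered reads summed to between 18683965 and 18885652 per library, and 3 reads corresponded to 0.159 to 0.161 CPM. For the 10 genes, each recovered value lay within 0.012 of a whole number. Neuronal markers were present, with 8 of 8 detected (at least 1 CPM in each library) and a summed level of 6771 to 6819 CPM, and 6 of 6 astrocyte markers were also detected, at 1666 to 1707 CPM in sum. Microglial markers summed to 2.61 to 4.395 CPM, with 0 of 6 detected. In such bulk RNA, fewer cells of a type and less RNA per cell cannot be told apart, and which cells made the reads of the pump genes was not tested.

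The genes are paralogs, and the bases that tell them apart are shown at the sites that define each protein. For 5 of the pumps the stretch is printed, and the capitals mark the codons of the aspartate-lysine-threonine-glycine-threonine signature, whose aspartate takes up phosphate from ATP in every transport cycle. Each stretch is given 5′ to 3′ on the coding strand, from GENCODE M21 transcripts of GRCm38.
Atp2a3: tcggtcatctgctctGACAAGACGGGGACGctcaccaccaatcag
Atp2b1: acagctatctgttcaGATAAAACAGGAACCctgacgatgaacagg
Atp2b2: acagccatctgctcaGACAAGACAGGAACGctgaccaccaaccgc
Atp2b4: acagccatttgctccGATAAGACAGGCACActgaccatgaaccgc
Atp2c1: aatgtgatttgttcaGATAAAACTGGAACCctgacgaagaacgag
Over the 10 pairs of these 5 pumps the 45 bases differed at 7 to 18 positions, and the 15 capital bases at 1 to 5. The nearest pair over the 45 bases was Atp2b2 and Atp2b4, with 7 differences, and at the capitals Atp2b1 and Atp2c1, with 1.

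The exchangers lack this signature. Their capitals mark the codons of a glycine-serine-serine-alanine-proline-glutamate stretch in the first alpha repeat, part of the path of the ions through the membrane.
Slc8a1: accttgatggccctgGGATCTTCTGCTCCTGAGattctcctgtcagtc
Slc8a2: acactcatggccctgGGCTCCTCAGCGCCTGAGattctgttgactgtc
Slc8a3: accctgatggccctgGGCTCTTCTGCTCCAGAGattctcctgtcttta
Slc8a1 and Slc8a3 differed at 6 of these 48 bases, and Slc8a2 differed from each of them at 11. Over whole coding sequences, nucleotide identity was 70.7% between the SERCA genes, 71.4% to 78.1% among the PMCA genes and 67.7% to 71.1% among the exchangers. Of the 45 pairs of the 10 genes, only Atp2b2 and Atp2b3 shared any stretch of 50 bases in their annotated transcripts, and they shared 7 such stretches.

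Overlap with neighbours on the other strand was a further source of doubt, since no source used here says whether counting kept the strand. Of the 9694 exonic bases of Atp2c1, 1837 were shared with Aste1 on the opposite strand, a gene that had 128, 102 and 106 reads. Slc8a1 shared 296 of its 18807 exonic bases with an antisense gene, and Atp2a2 shared 83 of 6081 with Gm43361, which had 7 reads in all. Values of Atp2c1 and Slc8a1 are uncertain to the extent of these overlaps.

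Of the 10 genes, 9 were detected, at 41.0 to 566 CPM on average. Together the 10 took 0.134%, 0.136% and 0.136% of the reads in replicates 1, 2 and 3. The exception was Atp2a3, with 3 reads in all.

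**Figure D1:**
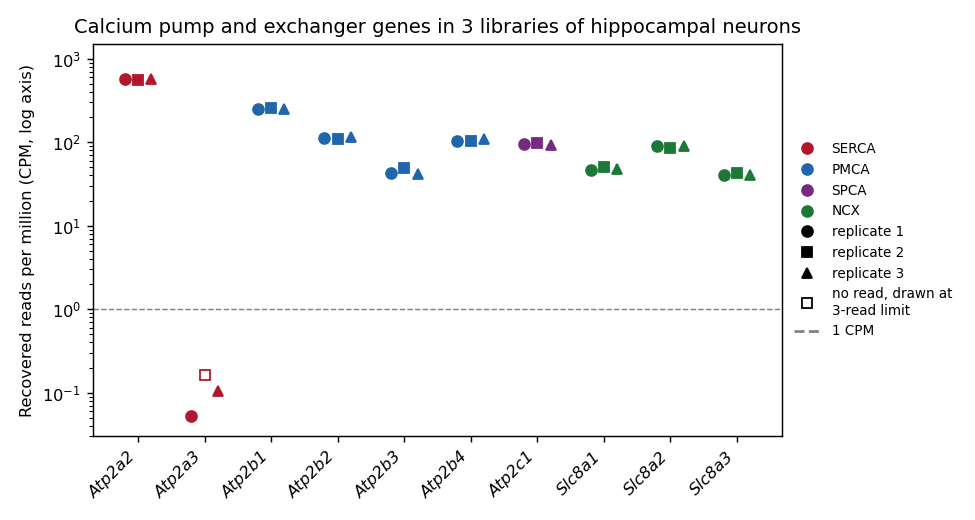
Level of each gene in recovered reads (CPM, log axis) in replicates 1 to 3, coloured by family; the dashed line marks 1 CPM, and an open symbol marks a library without a read, drawn at the 3-read limit of 0.161 CPM. Symbols of 9 genes lie between 40.2 and 573 CPM with their 3 libraries close together, and those of Atp2a3 lie below 1 CPM.

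Atp2a2, which encodes SERCA2, the housekeeping reticulum pump of most cells, was the highest of the 10 genes. It lies on chromosome 5 from 122453513 to 122502225 (minus strand; GRCm38, as for all coordinates here). It had 10591, 10504 and 10816 reads, or 563.9, 562.2 and 572.7 CPM, in replicates 1, 2 and 3 (mean 566 ± 5.64, SD, n = 3). The libraries lay close together, in a 1.02-fold range after size scaling, with replicate 3 highest. Its deposited log2 values were 13.37, 13.37 and 13.39. Among 12472 detected protein-coding genes, 98.8% had a lower level in CPM and 97.3% a lower level per kilobase of exon. Per kilobase of coding exons this share was 92.7%.

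Atp2a3 encodes SERCA3, a pump known from platelets, lymphocytes, endothelium and cerebellar Purkinje cells. It lies on chromosome 11 from 72961169 to 72993044 (plus strand) and had 1, 0 and 2 reads in replicates 1, 2 and 3. Pooled over the libraries this is 0.0532 CPM, with an exact 95% Poisson interval of 0.011 to 0.156 CPM that covers counting error only. The replicate without a read allows up to 0.161 CPM. Atp2a2 therefore had 31911 reads against 3 reads of Atp2a3, a ratio of 10637 with an exact 95% interval of 3639 to 51583. Per kilobase of exon the ratio was 9238 (3161 to 44796). Defining markers of the cells in which SERCA3 is known were at or near 0. Of 4 platelet and lymphocyte markers 0 were detected, with a sum of 0.321 to 0.586 CPM and no reads of Gp9 and Cd3e. Of 6 endothelial markers 1 was detected, with a sum of 5.14 to 5.43 CPM and no reads of Cldn5. Of 6 markers of cerebellar Purkinje and granule cells 4 were detected, with a sum of 128.7 to 131.3 CPM, but the Purkinje cell gene Pcp2 had 2 reads.

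The region before the start of Atp2a3 is shown beside that of Slc8a2, an exchanger gene that was read, with each CG dinucleotide in capitals (RefSeq, GRCm38.p6, 250 bases up to the start, coding strand). The windows are chr11:72960919-72961168 for Atp2a3 and chr7:16129576-16129825 for Slc8a2, both on the plus strand.
Atp2a3: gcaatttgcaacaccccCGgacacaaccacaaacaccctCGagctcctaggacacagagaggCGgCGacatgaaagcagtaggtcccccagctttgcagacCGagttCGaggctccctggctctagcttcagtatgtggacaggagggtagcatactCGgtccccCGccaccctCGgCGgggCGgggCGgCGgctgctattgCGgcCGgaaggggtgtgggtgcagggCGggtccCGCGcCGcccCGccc
Slc8a2: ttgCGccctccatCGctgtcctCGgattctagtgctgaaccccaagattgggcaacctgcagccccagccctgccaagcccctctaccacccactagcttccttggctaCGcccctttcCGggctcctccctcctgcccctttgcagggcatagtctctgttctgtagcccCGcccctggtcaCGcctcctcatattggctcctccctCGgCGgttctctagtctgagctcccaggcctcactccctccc
Atp2a3 held 20 CG in this window, more than 80.3% of 27025 genes, and Slc8a2 held 9, more than 57.2%, against a median of 6 over all genes. The windows of Slc8a1 and Slc8a3 held 8 and 11. CG reads the same on both strands, so 1 count covers both, and for genes with several starts the highest count was taken for the comparison. These 4 members are those whose RefSeq start lay within 100 bases of the GENCODE gene start, out of 8 found in the promoter table. The gene with the most CG of the 4 was the one with almost no reads, which is given as a description of these windows. It did not hold over the members left out, all of which were read. At RefSeq starts further from the GENCODE start, Atp2b1 held 43 and 41 CG and Atp2c1 held 28 and 7. Windows of Atp2b2 held 6, 6 and 16, and that of Atp2b4 held 2.

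The 4 PMCA genes were all detected, and Atp2b1 was the highest of them on every scale. Atp2b1 encodes PMCA1, the most widely expressed plasma membrane pump, and lies on chromosome 10 from 98914406 to 99026143 (plus strand). It had 4688, 4784 and 4755 reads, or 249.6, 256.0 and 251.8 CPM (252 ± 3.27, SD, n = 3), and its libraries lay within a 1.03-fold range. Atp2b2 encodes PMCA2, a fast pump of neurons and of hair cells in the inner ear, and lies on chromosome 6 from 113743831 to 114042613 (minus strand). It had 2086, 2034 and 2189 reads, or 111.1, 108.9 and 115.9 CPM (112 ± 3.60), with replicate 3 highest. Atp2b4 encodes PMCA4, a pump made by many cell types, and lies on chromosome 1 from 133699457 to 133801041 (minus strand). It had 1958, 1938 and 2057 reads, or 104.3, 103.7 and 108.9 CPM (106 ± 2.86), and here too replicate 3 was highest.

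Atp2b3, on the X chromosome from 73503086 to 73571005 (plus strand), encodes PMCA3, a fast pump largely restricted to brain. It had 793, 911 and 786 reads, or 42.2, 48.8 and 41.6 CPM (44.2 ± 3.96, SD, n = 3). Replicate 2 stood above the other libraries, which lay close together. The deposited log2 values, which are pulled together, showed the same order with smaller gaps, at 9.68, 9.73 and 9.67.

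Levels of different genes were compared per kilobase, because a longer transcript gives more reads. Per kilobase of all annotated exons, Atp2b1 exceeded Atp2b2 by 0.87 ± 0.02 log2 units (1.82-fold), Atp2b3 by 0.82 ± 0.02 (1.77-fold) and Atp2b4 by 0.91 ± 0.02 (1.87-fold). These are means of differences within a library of deposited values with 0.5 added to each level, and their SDs in recovered reads were 0.05, 0.10 and 0.05. Each of these differences was larger than its SD. The remaining 3 genes lay close together on this scale. Atp2b2 over Atp2b3 was −0.04 ± 0.05, which is within the spread between libraries (SD 0.16 in recovered reads). Atp2b2 over Atp2b4 was 0.04 ± 0.005 and Atp2b3 over Atp2b4 was 0.08 ± 0.04, the second again within the SD of recovered reads, 0.15.

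The closeness of these 3 genes depended on the length used. The annotated exons of Atp2b2 and Atp2b4 sum to 12612 and 12248 bases and those of Atp2b3 to 4820, whereas their coding exons sum to 3906, 4050 and 3904. Per kilobase of coding exons, Atp2b2 exceeded Atp2b3 by 1.30 log2 units (2.47-fold; SD 0.16 in recovered reads) and Atp2b3 lay below Atp2b4, at −1.17 (SD 0.15). Atp2b1 then exceeded Atp2b3 5.48-fold. Atp2b1 was first and Atp2b2 was above Atp2b4 on the exon, the coding and the unscaled level, whereas Atp2b3 ranked second of the 4 per kilobase of exon and last on the other 2 levels.

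**Figure D2:**
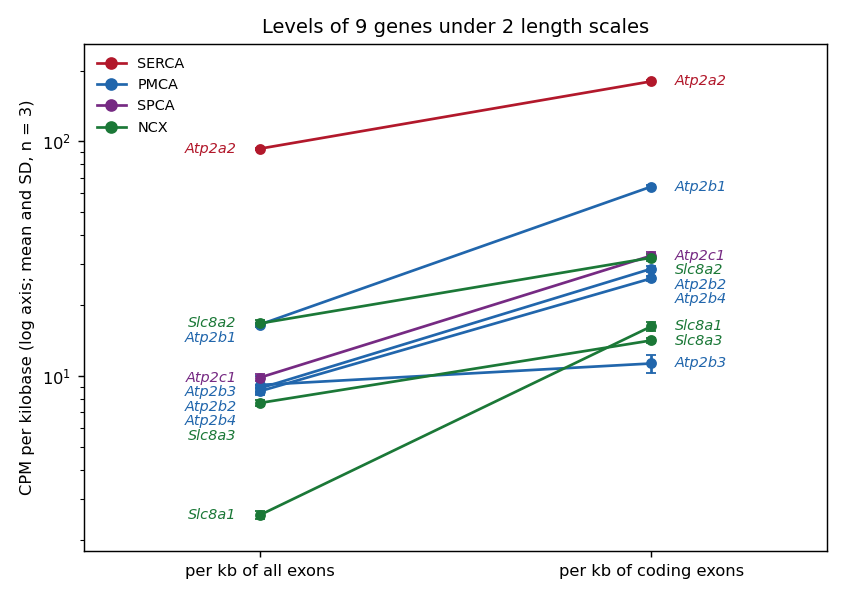
Levels of the 9 detected genes in CPM per kilobase (log axis; mean and SD of recovered reads, n = 3), scaled by all annotated exons (left) or by coding exons only (right), coloured by family. Slc8a1 climbs from last at 2.56 to 16.3, above Slc8a3 and Atp2b3, while Atp2a2 stays first at 93.1 and 180.

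Atp2c1, which encodes SPCA1, was the only secretory pathway pump that was read beyond a trace. It lies on chromosome 9 from 105403539 to 105527319 (minus strand) and had 1804, 1843 and 1739 reads, or 96.1, 98.6 and 92.1 CPM (95.6 ± 3.30, SD, n = 3). Replicate 2 was highest and replicate 3 lowest, in a 1.07-fold range. Its paralog Atp2c2, which encodes SPCA2, had 1 read over the 3 libraries. Atp2a2 exceeded Atp2c1 by 3.18 ± 0.03 log2 units per kilobase of exon (9.04-fold; SD 0.06 in recovered reads) and by 2.45 per kilobase of coding exons (5.46-fold).

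All 3 exchanger genes were detected, and Slc8a2 led on every scale. Slc8a2 encodes NCX2, an exchanger of brain, and lies on chromosome 7 from 16129826 to 16161063 (plus strand). It had 1685, 1583 and 1705 reads, or 89.7, 84.7 and 90.3 CPM (88.2 ± 3.06, SD, n = 3), with replicate 2 lowest. Slc8a1 encodes NCX1, the exchanger of heart that is also made in brain, and lies on chromosome 17 from 81373105 to 81738377 (minus strand). It had 869, 942 and 903 reads, or 46.3, 50.4 and 47.8 CPM (48.2 ± 2.10), with replicate 2 highest. Slc8a3 encodes NCX3, known from brain and skeletal muscle, and lies on chromosome 12 from 81197915 to 81333180 (minus strand). It had 758, 791 and 760 reads, or 40.4, 42.3 and 40.2 CPM (41.0 ± 1.18). Slc8a2 was thus low in the library in which Slc8a1 and Slc8a3 were high. None of the 3 spread beyond counting error in the chi-square test given below. Its adjusted p was 0.422 for Slc8a1, 0.444 for Slc8a2 and 0.746 for Slc8a3.

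Per kilobase of exon, Slc8a2 exceeded Slc8a3 by 1.08 ± 0.03 log2 units (2.11-fold; SD 0.09 in recovered reads). Slc8a1 over Slc8a2 was −2.50 ± 0.03, and Slc8a1 over Slc8a3 was −1.42 ± 0.007 (SDs of 0.10 and 0.02 in recovered reads). The place of Slc8a1 was set by the length used. Its annotated exons sum to 18807 bases and its coding exons to 2957, against 5332 and 2888 for Slc8a3. Per kilobase of coding exons Slc8a1 over Slc8a3 turned to 0.19 (1.14-fold; SD 0.03 in recovered reads) and Slc8a1 over Slc8a2 was −0.95, whereas Slc8a2 over Slc8a3 was little altered at 1.14.

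In deposited values, which are pulled together, the difference had the same sign in 3 of 3 libraries for each of the 11 gene pairs compared. The two-sided exact sign-flip permutation test on them gave p = 0.25 for each pair (0.25 after Benjamini-Hochberg adjustment over the 11 pairs). This is the smallest p that 3 libraries allow, so no pair could pass a threshold of 0.05. In recovered reads, 2 of the 11 pairs changed sign between libraries. Per kilobase of exon Atp2b2 had 8.81, 8.63 and 9.19 CPM in replicates 1, 2 and 3, against 8.76, 10.12 and 8.635 for Atp2b3, so that Atp2b2 was the lower in replicate 2 only (p = 1.0 by the same exact permutation test on recovered reads). Atp2b4 had 8.51, 8.47 and 8.89 and was above Atp2b3 in replicate 3 only (exact permutation p = 0.75 for Atp2b3 over Atp2b4).

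Summed by family and per kilobase, pumps of the reticulum had the highest level, and the size of their lead depended on the length used. In recovered reads per kilobase of exon, SERCA genes summed to 92.8, 92.5 and 94.2 CPM per kilobase in replicates 1, 2 and 3, and PMCA genes to 42.5, 44.0 and 43.3. Exchangers summed to 27.1, 26.7 and 27.25, and SPCA had 9.91, 10.2 and 9.50. The order of the 4 families was the same in each library and did not overlap between families. With 0.5 added per gene, PMCA over SERCA was −1.06 log2 units, PMCA over NCX 0.67 and SERCA over NCX 1.72 in deposited values (SDs of 0.031, 0.035 and 0.0079 in recovered reads). Per kilobase of coding exons PMCA over SERCA was −0.45, and without length scaling it was −0.14, with 514 ± 6.16 CPM for PMCA and 566 ± 5.69 CPM for SERCA in recovered reads (SD, n = 3). The sums cover 4 PMCA, 3 NCX and 2 SERCA genes with no division by the size of a family, and the SERCA sum was almost wholly Atp2a2.

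Atp2b1 made up 37.8% ± 0.21 of the PMCA sum and Slc8a2 60.6% ± 1.5 of the NCX sum per kilobase of exon (SD of recovered reads, n = 3). Per kilobase of coding exons the shares were 48.9% and 50.7%. Atp2b2 and Atp2b4 had similar shares on both scales, at 20.7% and 20.2% per kilobase of exon and 22.05% and 20.1% per kilobase of coding exons. Atp2b3 took 21.4% and 8.93%, and Slc8a1 took 10.7% and 26.3%, on the same scales. With nothing added, Atp2b3 and Slc8a1 took 21.2% and 9.48% per kilobase of exon.

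**Figure D3:**
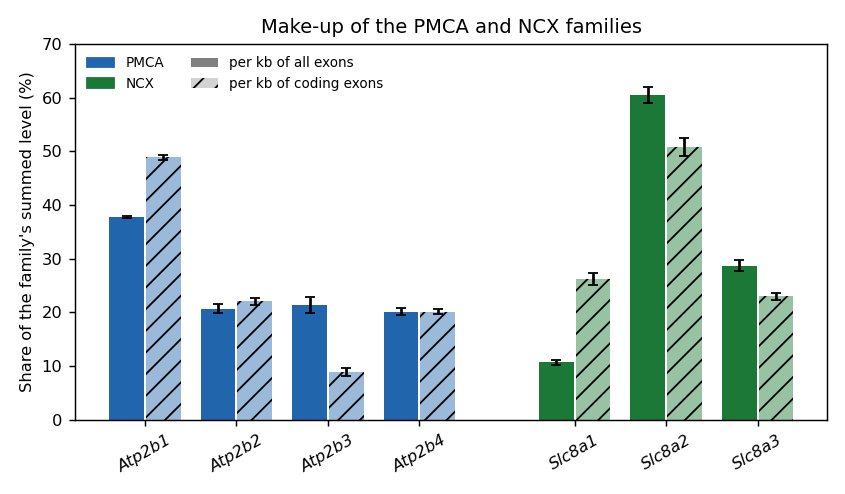
Share of each gene in the summed level of its family, in percent, for PMCA (blue) and NCX (green); filled bars are scaled by all annotated exons, hatched bars by coding exons, and error bars are the SD over 3 libraries in recovered reads. Atp2b1 (37.8% and 48.9%) and Slc8a2 (60.6% and 50.7%) lead their families on both scales, while Atp2b3 and Slc8a1 shift with the scale.

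Ranked per kilobase of exon, the order was Atp2a2, Slc8a2, Atp2b1, Atp2c1, Atp2b3, Atp2b2, Atp2b4, Slc8a3, Slc8a1 and Atp2a3. The first step, from Atp2a2 to Slc8a2, was 2.44 ± 0.04 log2 units in recovered reads. Slc8a2 and Atp2b1 did not differ beyond their spread (0.01 ± 0.07, with the same sign in 2 of 3 libraries), and neither did Atp2b3 and Atp2b2 (0.04 ± 0.16, 1 of 3). Atp2c1 lay above Atp2b3 by 0.10 ± 0.08, and Atp2b4 above Slc8a3 by 0.16 ± 0.07, each in 3 of 3 libraries. Ranked per kilobase of coding exons, the order was Atp2a2, Atp2b1, Atp2c1, Slc8a2, Atp2b2, Atp2b4, Slc8a1, Slc8a3, Atp2b3 and Atp2a3. There Atp2c1 and Slc8a2 did not differ beyond their spread (0.03 ± 0.10, 2 of 3). Atp2a2 was first and Atp2a3 last in both orders.

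The only test across all genes that a single group allows is of the spread between its libraries. A chi-square test on recovered reads covered 15131 genes with a mean of at least 10 reads, of which 9 of the 10 genes were part. Atp2a3 was too low to enter. More spread than counting error was found for 1 of 9, Atp2b3, with an adjusted p of 0.0171 (Benjamini-Hochberg over the 15131 genes), a 1.17-fold range and replicate 2 highest. The background was 8.62% of all genes tested. This call rested on replicate 2: without replicate 2 the adjusted p was 0.975, and without replicate 3 it was 0.0527. Against the dispersion trend, which is the usual spread of genes of like abundance in these libraries, 0 of 9 were called at an adjusted p below 0.05 by the same chi-square test, against a background of 0.317%. At an unadjusted p below 0.05 the count was 1 of 9, again Atp2b3 (unadjusted p = 0.0255, adjusted p = 0.679). The background at this unadjusted threshold was 929 of the 15131 genes tested.

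The coefficient of variation between libraries, on size-scaled recovered reads, was 1.29% for Atp2a2 and 1.64% for Atp2b1, the genes with the most reads. It was 9.12% for Atp2b3, 4.68% for Slc8a1, and between 2.99% and 3.42% for Atp2b2, Atp2b4, Atp2c1, Slc8a2 and Slc8a3. The median over the 9 genes was 3.37%, beside a median of 5.37% over all genes tested. Abundance differed as well: genes with a mean of 1000 to 10000 reads had a median of 3.15% and those with 100 to 1000 reads 5.28%, and its part in the lower median was not tested. Atp2b3, with 2490 reads in all and 786 to 911 per library, was near the upper end of the range of 100 to 1000 reads. Its 9.12% lay between the 10th and 90th percentiles of genes in that range, 2.01% and 10.9%. It was above the 90th percentile of genes with 1000 to 10000 reads, 6.2%.

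**Figure D4:**
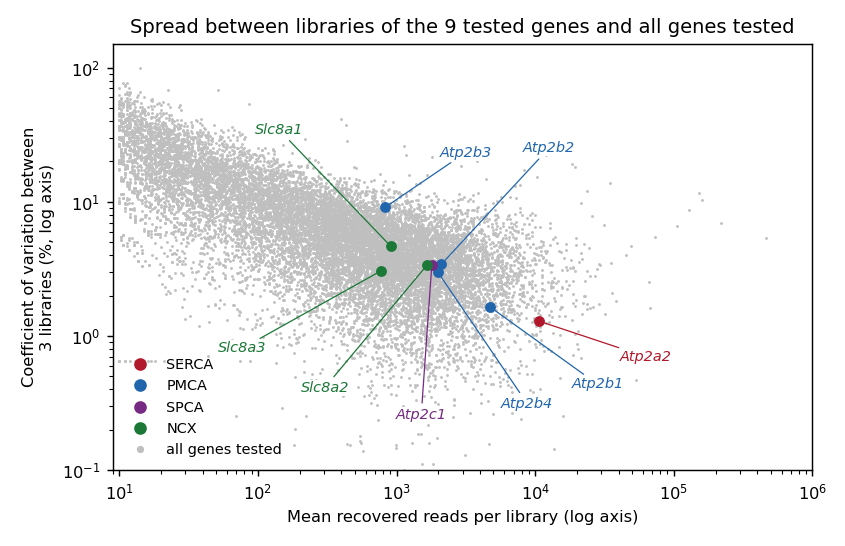
Coefficient of variation of size-scaled recovered reads over the 3 libraries (%, log axis) against mean reads per library (log axis), for the 15131 genes tested (grey; 4 genes below 0.1% are off the axis) and the 9 tested pump and exchanger genes, coloured by family. The 9 genes lie inside the grey cloud, with Atp2b3 highest of them at 9.12% and Atp2a2 lowest at 1.29%.

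Other genes of calcium handling were read from 7 lists holding 40 genes, all with a row in the tables (Strit1 and Mcub under the older symbols Gm34302 and Ccdc109b). Of the 40, 28 were detected. Among the remaining pumps and exchangers 5 of 8 were detected, led by Slc24a3 (79.6 ± 3.71 CPM, SD, n = 3), Slc24a2 (39.6 ± 1.01) and Slc24a4 (4.01 ± 0.575), which encode potassium-dependent sodium-calcium exchangers. The mitochondrial exchanger gene Slc8b1 had 29, 29 and 28 reads. Below 1 CPM lay Atp2a1, which encodes the SERCA1 of fast skeletal muscle, with 8 reads in all, Slc24a1 with 6 and Atp2c2 with 1.

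Of the micropeptides that bind SERCA in muscle and other tissues, the 5 on the list had almost no reads, although Atp2a2 itself was among the highest genes. Micropeptide genes outside the list were not examined. Of 5 such genes 0 were detected in these libraries: Mrln had 4 reads in all, Sln and Smim6 had 3 each, the phospholamban gene Pln had 1 and Strit1 had none. Together they summed to 0.161 to 0.213 CPM per library.

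The 4 partners of the plasma membrane pumps on the list were detected, all at high levels. Nptn and Bsg encode neuroplastin and basigin, membrane proteins that join PMCA complexes, and stood at 343 ± 7.02 and 342 ± 15 CPM. Calmodulin, which activates PMCA pumps when calcium rises, was read from Calm3 (1030 ± 20) and Calm2 (820 ± 37.2).

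Of the endoplasmic reticulum release channels 5 of 6 were detected. Itpr1, an inositol trisphosphate receptor gene, reached 40.1 ± 1.83 CPM, and the ryanodine receptor genes Ryr2 and Ryr3 35.5 ± 1.63 and 21.6 ± 0.828, while Itpr3 stayed below 1 CPM in every library with 48 reads. For store-operated entry, which refills the reticulum that SERCA pumps load, all 5 genes were detected, led by the channel gene Orai2 (84.4 ± 2.04) and the sensor genes Stim2 (48.6 ± 0.737) and Stim1 (47.9 ± 0.544). Calcium-binding proteins of the reticulum were represented by the chaperone genes Canx (279.8 ± 5.56), Hspa5 (257 ± 6.92) and Calr (165 ± 6.33), whereas Casq1, Casq2 and Hrc, genes of the muscle reticulum, had 38, 6 and 23 reads. All 6 genes on the mitochondrial calcium uptake list were detected, with the highest levels for Letm1 (89.4 ± 3.37), Micu3 (82.5 ± 2.94) and the uniporter gene Mcu (58.4 ± 2.75). What each of these genes does in uptake was not tested.

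**Figure D5:**
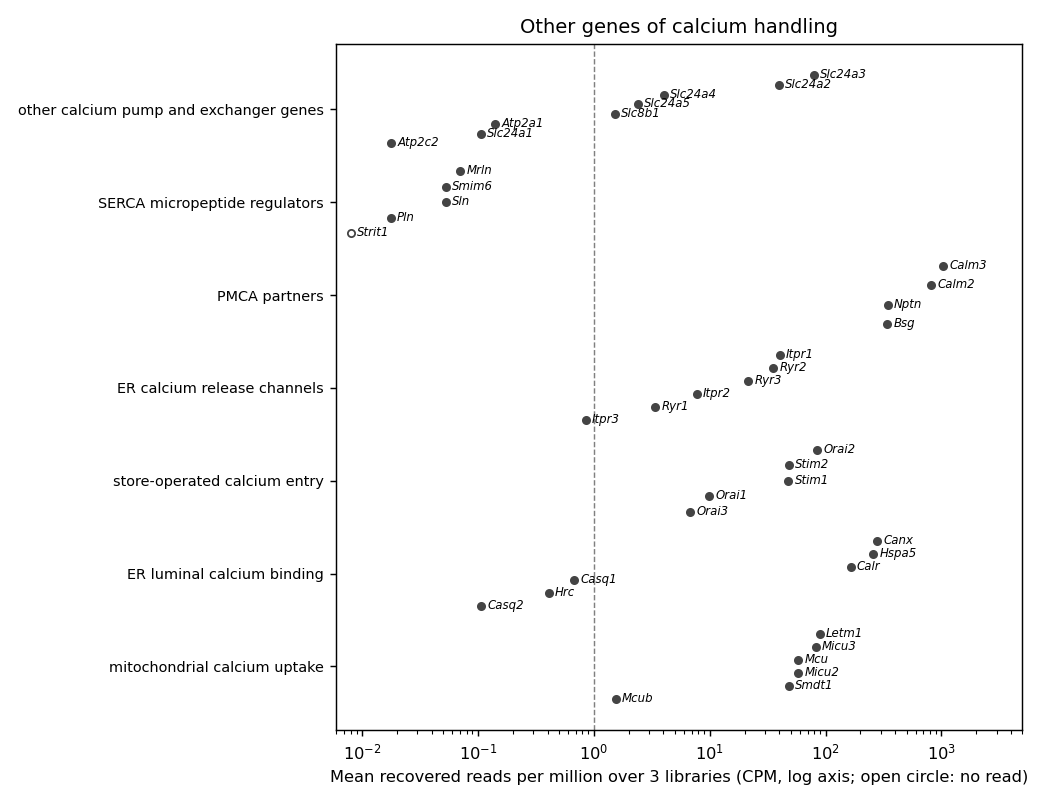
Mean level of 40 other calcium-handling genes in recovered reads (CPM, log axis) over 3 libraries, by list; the dashed line marks 1 CPM and the open circle, Strit1, a gene without reads drawn at the left edge. The 5 SERCA micropeptide genes lie left of the line and the 4 PMCA partners far to its right, between 342 and 1030 CPM.

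Spread between libraries exceeded counting error for 4 of 30 such genes tested (adjusted p below 0.05; background 8.62%). They were the PMCA partners Bsg, Calm2 and Calm3, with adjusted p-values of 0.00044, 1.06e-10 and 0.0495, and Smdt1, a subunit of the mitochondrial uniporter, at 0.00577. Their ranges were 1.03-fold to 1.19-fold, and the 3 partners had 19283 to 58044 reads each over the 3 libraries. Calm3, called only narrowly, had a mean deposited log2 value of 14.24. At a mean of 14 or more, recovery was less exact, with 92.958% of values within 0.1 of a whole number. Against the dispersion trend the chi-square test called 0 of 30 at an adjusted p below 0.05 (background 0.317%). At an unadjusted p below 0.05 the count was 1 of 30, against 929 of all 15131 genes tested.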

How the data were processed

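RNA of 3 libraries of WT primary hippocampal neurons in fresh medium was sequenced on a BGI DNBSEQ instrument, per the labels. The submitters' processing notes name FastQC, HISAT2, featureCounts and DESeq2; the sources used here give neither their versions and order nor the genome build. The values deposited by the authors are log2 values, 1 per gene and library, whose form is that of a regularized log. Reads were recovered by inverting the shrinkage fit of such a log, and 99.944% of 77088 values came out within 0.1 of a whole number. Levels compared between genes are deposited log2 values scaled to CPM, divided by the length of all annotated exons (GENCODE M21, GRCm38; 45224 of 47593 names matched), with 0.5 added. Spread between libraries was tested with a chi-square test on recovered reads against counting error and against a dispersion trend from 20 bins of abundance, with Benjamini-Hochberg adjustment over all genes of at least 10 reads on average. The code was tested on simulated data, with Python 3.11.15, numpy 2.4.6 and scipy 1.17.1. The design foresaw coding lengths from a protein table, which was not used here; coding exons of GENCODE took their place after the data had been seen. Text names all 10 genes, the 3 highest of each companion list, those below 1 CPM and any companion called. Members and lists were chosen with earlier results of these data known. Intervals and the 3-read floor cover counting error alone, because reads lacking molecular identifiers cannot be counted as separate molecules. Some listed genes and some coding stretches are not reported here, and counts over lists and sequence pairs leave them out.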

Additional observations from a re-analysis of the deposited data

How the results depend on the processing

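The length used turned 3 gene pairs round. Without length scaling, per coding exon, and per coding exon in recovered reads, Atp2b2 over Atp2b3 turned to 1.33, 1.30 and 1.31 log2 units, Atp2b3 over Atp2b4 to −1.25, −1.17 and −1.17, and Slc8a1 over Slc8a3 to 0.23, 0.19 and 0.19. In the same order PMCA over SERCA was −0.14, −0.45 and −0.45, PMCA over NCX 1.53, 1.05 and 1.05, SERCA over NCX 1.67, 1.5 and 1.5, the Atp2b1 share 49.0%, 48.9% and 48.9%, and the Slc8a2 share 49.6%, 50.7% and 50.7%. The coding-length settings were chosen after seeing the data. With 5 added in place of 0.5 these 5 values were −0.71, 0.59, 1.30, 34.1% and 51.8%. With nothing added PMCA over SERCA was −1.11, SERCA over NCX 1.79, the Atp2b1 share 38.4% and the Slc8a2 share 62.1%. Leaving out 1 replicate at a time gave 334 (without replicate 2) to 1187 genes above counting error, against 1304, and 7 to 28 above the dispersion trend, against 48; of the 9 tested pump and exchanger genes 0 to 1 stayed above counting error. Fewer libraries enter each of these tests. Of 99 alternatives for the gene pairs 90 kept their direction, and all 9 reversals came from settings that changed or dropped the length. In deposited values each pair had the same sign in 3 of 3 libraries. Changing the added value or leaving out 1 replicate therefore could not turn a pair, and those alternatives do not test its direction. The number of detected genes among the 10 was 9 under each alternative run. No paired analysis was possible because the libraries form a single group. Lengths from the protein table were not run. With 3 libraries no pair can pass 0.05, and 3 reads of Atp2a3 bound its level by counting error alone.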
